A study of Homo sapiens with 8 samples.

Results

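The 10 genes described here are noncoding host genes of small nucleolar RNAs (snoRNAs): GAS5, SNHG1, SNHG3, SNHG5, SNHG6, SNHG8, SNHG12, SNHG15, SNHG16 and ZFAS1. They were chosen by name, as hosts whose spliced RNA is known to decay when ribosomes translate it. The rule uses no measured value, but it was written with earlier results of these data known. They are 10 of the 60617 genes in the count table. RNA was sequenced from MCF-10A, an established line of non-tumorigenic human breast epithelial cells, in 2 sublines labelled Empty and NeuT. Each subline was left untreated or given 1 µM JG-98, an inhibitor of the Hsp70 chaperones, for 12 h, with 2 libraries in each of the 4 groups. All groups grew in the same medium with horse serum, epidermal growth factor, hydrocortisone, insulin and cholera toxin, and the controls are described as untreated, with no vehicle named. NeuT usually denotes an activated rat Erbb2 (neu) receptor, but the labels do not state what the cells carry, which promoter drives it or whether a subline is 1 clone. The series compares how sensitive transformed cells are to JG-98, and its title names the kinase HRI and its target, the translation initiation factor eIF2α.

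snoRNAs guide the chemical modification of ribosomal RNA, and in human cells most of them are cut from the introns of longer transcripts. In the genes described here the exons that remain after splicing are not known to encode a conserved protein, yet the spliced RNA is exported and meets ribosomes. Translation of a short reading frame that ends upstream of further exon junctions is known to trigger nonsense-mediated decay, the pathway run by UPF1 and its partners, so these RNAs are known to accumulate when translation or UPF1 is blocked. Many hosts also begin with a cytosine followed by a run of pyrimidines, the 5′ terminal oligopyrimidine (5′TOP) start that they share with ribosomal protein mRNAs and through which translation follows growth signals. None of these libraries measured translation or RNA stability. The counts give steady-state RNA per library, in which fewer cells expressing a gene and less RNA per cell cannot be told apart.

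The first bases of 7 of the hosts are shown because the annotated starts differ between hosts. They are from GENCODE 29 transcripts on GRCh38, 5′ to 3′ on the transcribed strand, and capitals mark an opening run of pyrimidines in transcripts that begin with CTTT.
GAS5 (chr1:173863900-173867989, minus strand): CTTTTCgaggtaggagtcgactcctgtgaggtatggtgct
SNHG16 (chr17:76557769-76563160, plus strand): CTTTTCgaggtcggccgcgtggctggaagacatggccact
SNHG5 (chr6:85677084-85678733, minus strand): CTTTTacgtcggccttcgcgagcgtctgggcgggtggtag
SNHG8 (chr4:118278758-118279821, plus strand): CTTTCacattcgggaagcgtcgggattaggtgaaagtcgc
ZFAS1 (chr20:49278642-49289260, plus strand): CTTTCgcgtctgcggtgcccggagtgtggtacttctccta
SNHG1 (chr11:62851988-62855867, minus strand): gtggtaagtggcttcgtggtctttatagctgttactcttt
SNHG3 (chr1:28505980-28510892, plus strand): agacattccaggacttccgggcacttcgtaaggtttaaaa
The transcripts of GAS5 and SNHG16 begin with the same 11 bases, although the genes lie on different chromosomes.

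Of the 10 hosts, 6 have an annotated transcript that begins with CTTT, namely GAS5, SNHG5, SNHG6, SNHG8, SNHG16 and ZFAS1. SNHG1, SNHG3, SNHG12 and SNHG15 have none. A CTTT start was found for 1.16% of 14949 other long noncoding RNA genes, 4.38% of protein-coding genes and 32.6% of 86 genes named as cytosolic ribosomal proteins. These are shares of genes with at least 1 such transcript, and the hosts have many annotated transcripts. The rule asks for exactly CTTT at an annotated end and matched only 32.6% of the ribosomal protein genes. A host without a match is therefore not shown to lack a 5′TOP start. Counted by transcript, 17 of 135 from the 10 hosts (12.6%) and 0.707% of those from other long noncoding RNA genes began this way.

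The reading frame that starts at the first ATG was short in each transcript examined. It held 50 codons before the stop in GAS5, 37 in SNHG16, 35 in SNHG5, 25 in SNHG6 and ZFAS1, 23 in SNHG3, 18 in SNHG15, 5 in SNHG1 and SNHG12, and 4 in SNHG8. The frame of SNHG8, the shortest, is shown with its upstream bases, and capitals mark the frame from ATG to stop.
SNHG8: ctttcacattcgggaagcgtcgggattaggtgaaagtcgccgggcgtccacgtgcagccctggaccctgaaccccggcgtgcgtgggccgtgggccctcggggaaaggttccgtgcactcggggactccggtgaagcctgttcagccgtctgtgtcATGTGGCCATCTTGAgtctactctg
At least 1 exon junction lay 50 bases or more beyond the stop in 9 of the 10 hosts, the arrangement known to mark an RNA for nonsense-mediated decay, and SNHG3 was the exception. GAS5 had 4 such junctions and SNHG1 had 9. The arrangement was also found in 66.4% of 12572 spliced long noncoding RNA genes and, by the same first-ATG rule, in 53.3% of 18952 spliced protein-coding genes. Most genes of both classes thus share it.

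Levels are given as counts scaled to a common library size by the trimmed mean of M-values (TMM), written CPM, and between genes as CPM per kilobase of exon. All 10 hosts passed the filter on low counts, and their raw counts ran from 330 in 1 library for SNHG3 to 4429 in 1 library for SNHG5. By mean level per kilobase over the 8 libraries the order was SNHG6 (26.5), GAS5 (13.6), SNHG1 (9.85), SNHG5 (8.60), SNHG16 (5.19), SNHG15 (4.81), SNHG8 (4.46), SNHG3 (3.73), SNHG12 (2.95) and ZFAS1 (2.88). The order differed between the lines. SNHG3 had rank 5 of 10 in both Empty groups and rank 10 in both NeuT groups. SNHG1 had rank 2 in untreated Empty, rank 3 in treated Empty and rank 4 in both NeuT groups, while SNHG6 had rank 1 in all 4 groups. The range of SNHG6 over libraries lay wholly above that of GAS5, and the range of SNHG5 wholly above that of SNHG16. The ranges of GAS5 and SNHG1, of SNHG1 and SNHG5, and of each pair of neighbours from SNHG16 down to ZFAS1 overlapped. This order depends on the length used. Per kilobase of the single transcript described above, SNHG5 came first, followed by GAS5 and SNHG8, while SNHG3 came last, because the exons of the table merge many transcripts, some with retained introns. For SNHG1, SNHG8 and SNHG15 the merged exons form 1 block across the gene, so reads from their introns count too.

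Total counts ranged from 37341458 in Empty JG-98 replicate 1 to 56861971 in Empty JG-98 replicate 2, and the other 6 libraries lay between them. Basal epithelial markers summed to 17797 to 21871 CPM in the 8 libraries. Of the other cell types checked, leukocyte markers summed to at most 0.491 CPM, adipocyte markers to at most 0.259 CPM with ADIPOQ at 0, and endothelial markers to 8.29 to 15.1 CPM.

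The first question was how the hosts changed with JG-98. GAS5, SNHG8 and SNHG5 rose with the drug by 17.7% to 23.5% averaged over both lines, and ZFAS1 was 17.2% higher without passing the test. The other 6 hosts had averaged changes between -11.7% and 3.86%, and none passed. In edgeR, with an adjusted p-value under 0.05 over 17693 genes as the threshold for a call, 3 of 10 hosts were called higher, against 2.39% of all genes tested. No host was called lower, against 1.58% of all genes; at an unadjusted p-value under 0.05 there were also 0, and DESeq2 and limma-voom also gave 0. Only 1 host was called higher without Empty untreated replicate 2 (0.998% of all genes) or NeuT untreated replicate 2 (0.996%), and 1 was called lower without NeuT JG-98 replicate 1 (4.62%). With all 8 libraries, the 3 hosts called have an annotated CTTT start, as do ZFAS1, SNHG6 and SNHG16. None of the 4 hosts without an annotated CTTT start was called. This is a description of 10 genes and was not tested.

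**Figure D1:**
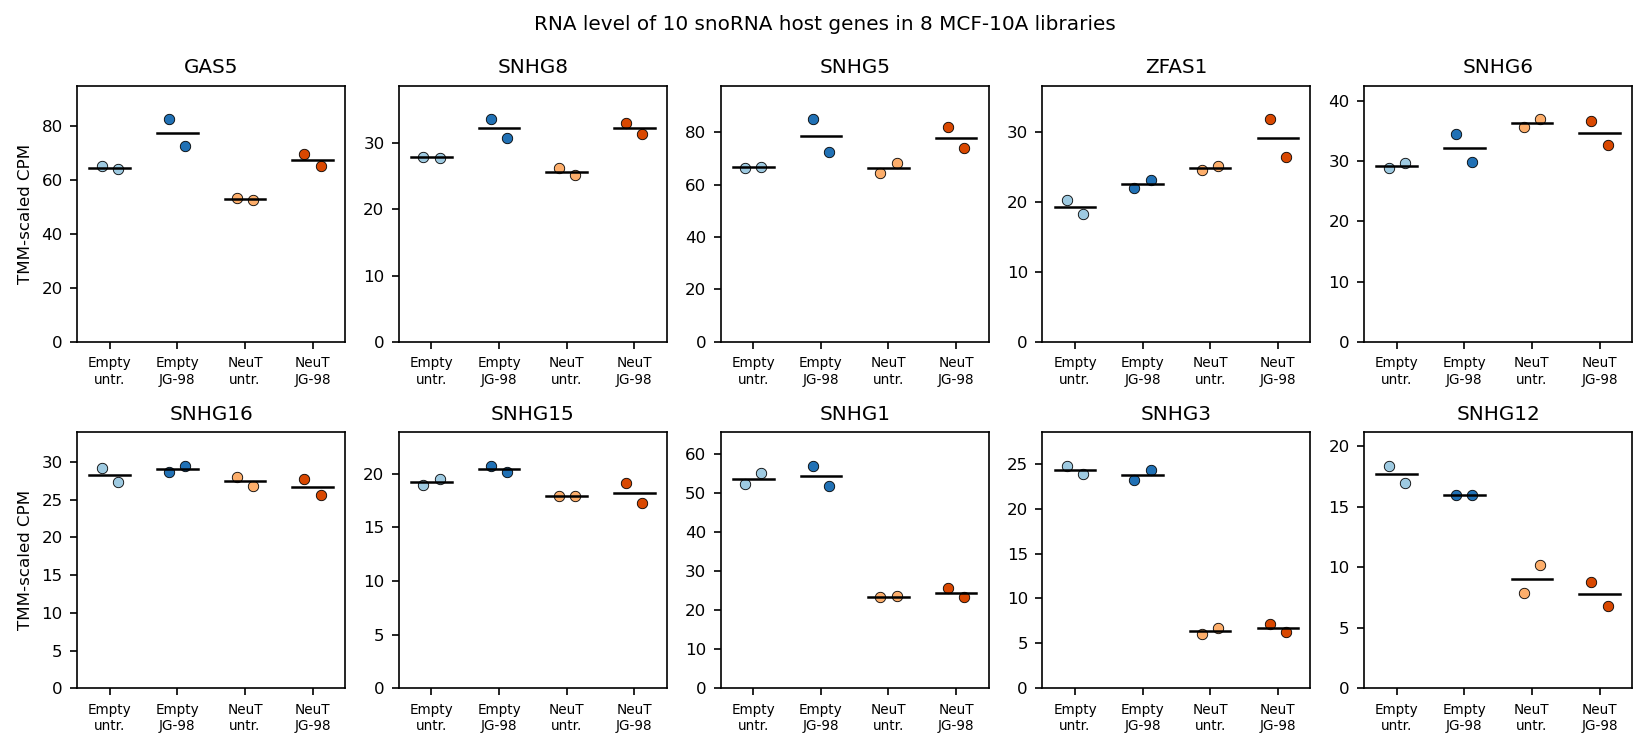
RNA level of each of the 10 host genes, in TMM-scaled CPM on a linear axis from 0, in the 4 groups of 2 libraries. Points are libraries and bars are group means. In GAS5, SNHG8, SNHG5 and ZFAS1 both treated libraries of a line lie above both untreated ones in each line, and in SNHG1, SNHG3 and SNHG12 all NeuT libraries lie below all Empty libraries.

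GAS5 (ENSG00000234741, chr1:173858559-173868882, minus strand) hosts snoRNAs of the C/D box class, and its RNA was first known for accumulating in growth-arrested cells. In Empty its level was 65.2 and 64.0 CPM in the untreated libraries and 82.5 and 72.7 CPM with JG-98. In NeuT it was 53.4 and 52.5 CPM untreated and 69.5 and 65.2 CPM with the drug. Treated and untreated libraries did not overlap in either line, and the higher value in Empty came from the library with the lowest depth. The averaged log2 fold change was 0.30 (SE 0.048, adjusted p = 0.00125 by edgeR). It was 0.35 in NeuT (SE 0.068, adjusted p = 0.00934 by edgeR) and 0.26 in Empty (SE 0.068, adjusted p = 0.148 by edgeR), where it was not called. The averaged change of GAS5 was called under all 16 alternative settings run for it, those without 1 library included. The NeuT call was lost without NeuT untreated replicate 1 (0.113) or replicate 2 (0.178).

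SNHG8 (ENSG00000269893, chr4:118278709-118285316, plus strand) hosts SNORA24, an H/ACA box snoRNA. It stood at 28.0 and 27.7 CPM in untreated Empty and at 33.6 and 30.8 CPM in treated Empty. The NeuT libraries gave 26.2 and 25.2 CPM without and 33.0 and 31.4 CPM with JG-98. The 4 treated libraries were thus all above the 4 untreated ones. The log2 fold change was 0.27 averaged (SE 0.053, adjusted p = 0.00672 by edgeR), 0.33 in NeuT (SE 0.074; 0.0222) and 0.21 in Empty (SE 0.074; 0.318, not called). The averaged call was lost without Empty untreated replicate 2 (0.0558) or NeuT untreated replicate 2 (0.0659). In NeuT the adjusted p-value was over 0.05 without any 1 of the 4 untreated libraries (0.0524 to 0.304) and with only the 4 NeuT libraries in the fit (0.0894). Of the exonic bases of SNHG8, 37.6% are shared with PRSS12, a protease gene on the opposite strand, and the use of strand in counting is not given in the sources used here. PRSS12 itself had an averaged log2 fold change of 0.19 (SE 0.053, adjusted p = 0.0520 by edgeR), and its part in the SNHG8 values was not tested.

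SNHG5 (ENSG00000203875, chr6:85650491-85678932, minus strand) hosts the SNORD50 snoRNAs and had the highest CPM of the 10. Its untreated levels were 66.2 and 66.8 CPM in Empty and 64.4 and 68.2 CPM in NeuT. With JG-98 they were 84.9 and 72.3 CPM in Empty and 82.0 and 73.9 CPM in NeuT. Replicate 1 was the higher treated library in both lines, and the lowest treated value still exceeded the highest untreated one. The averaged log2 fold change was 0.24 (SE 0.054, adjusted p = 0.0194 by edgeR), with 0.24 in Empty (0.257) and 0.23 in NeuT (0.123), neither called alone. The NeuT value was called with no filter on low counts (0.0215) and without NeuT JG-98 replicate 2 (0.0383), and the Empty value without NeuT JG-98 replicate 1 (0.0424) or 2 (0.0430). The averaged call was lost without any 1 of 5 libraries: Empty untreated replicate 1 (0.101) or 2 (0.0961), Empty JG-98 replicate 1 (0.116), and NeuT untreated replicate 1 (0.129) or 2 (0.0715).

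ZFAS1 (ENSG00000177410, chr20:49278178-49299600, plus strand) starts beside ZNFX1 on the opposite strand and hosts the SNORD12 snoRNAs. Empty had 20.2 and 18.3 CPM untreated and 21.9 and 23.1 CPM treated. NeuT had 24.5 and 25.1 CPM untreated and 31.8 and 26.4 CPM treated, so the treated libraries were the higher ones in each line and spread most in NeuT. The averaged log2 fold change of 0.23 (SE 0.065) did not pass (adjusted p = 0.0616 by edgeR). It was called with DESeq2 (0.0427), with no filter on low counts (0.00997) and without NeuT JG-98 replicate 2 (0.00263). Exons of ZFAS1 share 41.0% of their bases with genes other than snoRNAs, of which ZNFX1 on the opposite strand accounts for 2.99%. The part of these genes in the ZFAS1 values was not tested. The averaged log2 fold change of ZNFX1 was -0.00306 and was not called.

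The other hosts with a CTTT start, SNHG6 and SNHG16, were not called in either line. SNHG6 (ENSG00000245910, chr8:66921684-66926398, minus strand), the host of SNORD87, had 28.8 and 29.7 CPM in untreated Empty, 34.5 and 29.8 CPM in treated Empty, 35.7 and 37.0 CPM in untreated NeuT and 36.7 and 32.7 CPM in treated NeuT. Its treated and untreated libraries overlapped in NeuT. The log2 fold change was 0.13 in Empty and -0.07 in NeuT (edgeR adjusted p-values 0.646 and 0.756), and the interaction of line and drug of -0.20 (SE 0.12; 0.703) was not called. SNHG16 (ENSG00000163597, chr17:76557764-76565348, plus strand), the host of the SNORD1 snoRNAs, stayed between 25.6 and 29.5 CPM in all 8 libraries. Its averaged log2 fold change was 0.00200, with an approximate 95% interval (1.96 standard errors either side) from -0.10 to 0.11. The averaged change of GAS5, with which SNHG16 shares its first bases, lies outside that interval, but a difference between the genes was not tested.

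Among the hosts without a CTTT start, SNHG1 (ENSG00000255717, chr11:62851984-62855953, minus strand) carries 7 snoRNA rows of the table within its span. Its averaged log2 fold change was 0.04, with an interval from -0.06 to 0.14. SNHG3 (ENSG00000242125, chr1:28505980-28510892, plus strand), which hosts SNORA73A and SNORA73B, had 0.02 with an interval from -0.12 to 0.16. SNHG15 (ENSG00000232956, chr7:44983023-44986961, minus strand), the host of SNORA9, had 0.05 with an interval from -0.06 to 0.17. None of them passed the test in either line. SNHG12 (ENSG00000197989, chr1:28578538-28583132, minus strand) had the only averaged decrease, -0.18 (SE 0.092, adjusted p = 0.345 by edgeR). It was 18.4 and 16.9 CPM in untreated and 16.0 and 16.0 CPM in treated Empty, and 7.84 and 10.2 CPM in untreated and 8.75 and 6.77 CPM in treated NeuT. The NeuT replicates of SNHG12 differed by as much as 0.38 on the log2 scale, more than the change with the drug. It was called lower only without NeuT JG-98 replicate 1 (log2 fold change -0.28, adjusted p = 0.0413 by edgeR).

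**Figure D2:**
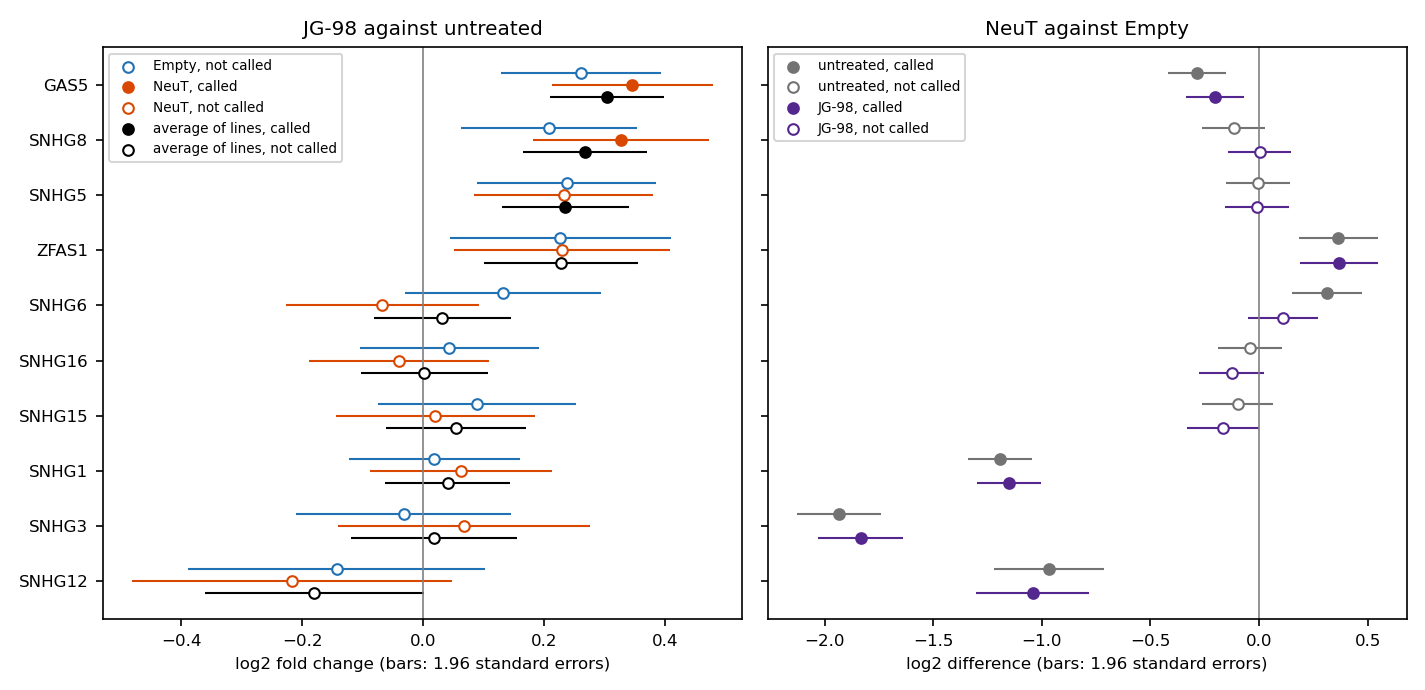
Log2 fold change with JG-98 (left: Empty, NeuT and the average of both) and log2 difference of NeuT from Empty (right: untreated and with JG-98) for the 10 host genes. Points are edgeR estimates, bars are 1.96 standard errors and filled points passed an adjusted p-value of 0.05. The drug changes of the 4 uppermost genes lie between 0.21 and 0.35, and the differences between lines reach -1.93 for SNHG3.

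Within the lines, 2 of 10 hosts, GAS5 and SNHG8, were called higher in NeuT, against 2.01% of all genes. In Empty edgeR called 0 of 10, against 0.339% of all genes. At an unadjusted p-value under 0.05 there were 4 hosts in Empty (GAS5, SNHG5, SNHG8 and ZFAS1), against 9.83% of all genes, and DESeq2 and limma-voom called 0. In Empty 1 host, GAS5, was called higher without the filter on low counts (0.507% of all genes tested there) and also with only the 4 Empty libraries in the fit (0.833%). In Empty 2 hosts, GAS5 and SNHG5, were called higher without NeuT JG-98 replicate 1 (1.39% of all genes) or 2 (1.34%). In NeuT 3 hosts were called higher without the filter (1.98% of all genes), SNHG5 being added, and 4 without NeuT JG-98 replicate 2 (1.2%). Without NeuT JG-98 replicate 1 the share of all genes rose to 6.27%, while 2 hosts were called. In NeuT 1 host was called without either untreated Empty library (1.37% of all genes each), and 0 without NeuT untreated replicate 1 (0.546%) or 2 (0.589%). Counted by libraries, treated and untreated did not overlap in Empty for 6 hosts that were higher and 1, SNHG12, that was lower, against 20.9% and 22.2% of all genes, and in NeuT for 4 that were higher and 0 that were lower, against 21.9% and 22.9%. Higher without overlap in both lines were 4 of 10 hosts, GAS5, SNHG5, SNHG8 and ZFAS1, against 7.13% of all genes. The 10 hosts together summed to 352.1 and 349.3 CPM in untreated and 403.0 and 370.7 CPM in treated Empty, and to 287.5 and 293.3 CPM in untreated and 341.4 and 308.8 CPM in treated NeuT. The median averaged log2 fold change of the 10 was 0.05, and that of all genes tested was -0.00181.

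Whether the lines responded differently was tested by the interaction. None of the 10 hosts was called by edgeR, against 0.00565% of all genes, none had an unadjusted p-value under 0.05, and DESeq2 and limma-voom called 0. The smallest adjusted p-value among the hosts was 0.703, so the NeuT calls of GAS5 and SNHG8 are not shown to differ from the values in Empty. The interaction of GAS5 was 0.08 (SE 0.096) and that of SNHG8 was 0.12 (SE 0.11). In the authors' deposited table for NeuT, GAS5 has a log2 fold change of 0.35 with an adjusted p-value of 0.0219 and SNHG8 has 0.33 with 0.0237, and no other host is under 0.05. In the authors' deposited table for Empty no host is under 0.05, and GAS5 has the smallest value, 0.158. The drug comparisons of the averaged and single-line kinds share their libraries, so they are not separate support for one another.

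The lines differed more than treated and untreated cells did. SNHG3, SNHG1 and SNHG12 were lower in NeuT than in Empty, with and without the drug, and GAS5 was moderately lower. ZFAS1 was higher in NeuT, and SNHG6 was higher in NeuT before treatment. Without treatment, 4 of 10 hosts were called lower, against 20.8% of all genes, and 2 higher, against 21.2%. With JG-98, 4 were called lower, against 20.0%, and 1 higher, against 21.7%. With total counts in place of the scaling factors, 40.7% of all untreated calls and 41.0% of those with JG-98 were higher in NeuT, against 50.5% and 52.0% with the factors.

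SNHG3 fell from 24.8 and 23.8 CPM in untreated Empty to 6.03 and 6.68 CPM in untreated NeuT. The log2 difference was -1.93 (SE 0.099, adjusted p = 9.9e-11 by edgeR), so that the level fell by 73.8%, and it was -1.83 with JG-98. SNHG1 fell from 52.4 and 55.1 CPM to 23.4 and 23.6 CPM, a log2 difference of -1.19 (SE 0.075; 1.2e-09), and -1.15 with the drug. SNHG12 had a log2 difference of -0.97 (SE 0.13; 1.5e-05) untreated and -1.04 with the drug. For these 3 hosts all NeuT libraries lay below all Empty libraries, and the calls held under all 17 alternative settings. SNHG3 shares 5.92% of its exonic bases with RCC1, a regulator of nuclear transport that lies on the same strand and had 172.7 CPM in untreated Empty and 89.3 CPM in untreated NeuT. RCC1 was itself lower by -0.95 (SE 0.062, adjusted p = 1.9e-09 by edgeR), and its part in the SNHG3 difference was not tested.

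GAS5 was lower in untreated NeuT by -0.29 (SE 0.068, adjusted p = 0.00261 by edgeR) and in treated NeuT by -0.20 (SE 0.068; 0.0239). The second call was lost without Empty JG-98 replicate 1 (log2 difference -0.11, 0.284), without NeuT JG-98 replicate 2 (0.0947) and with only the 4 treated libraries in the fit (0.0857). ZFAS1 rose from 19.3 ± 1.3 to 24.8 ± 0.48 CPM (SD, n = 2 each), a log2 difference of 0.36 (SE 0.092, adjusted p = 0.00419 by edgeR), and its neighbour ZNFX1 was higher by 0.33. SNHG6 rose from 29.3 ± 0.64 to 36.3 ± 0.90 CPM (SD, n = 2 each), by 0.31 (SE 0.082; 0.00538). Its treated libraries differed by 0.11 and were not called (0.305). The untreated call of ZFAS1 was lost without Empty untreated replicate 2 (0.0742) and that of SNHG6 without Empty untreated replicate 1 (0.0563).

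SNHG5, SNHG8, SNHG15 and SNHG16 were not called between lines in either condition. The untreated log2 difference of SNHG5 was -0.00432, with an interval from -0.15 to 0.14, and that of SNHG8 was -0.12, with an interval from -0.26 to 0.03. PRSS12, which overlaps SNHG8, was lower in untreated NeuT by -0.67. SNHG15 and SNHG16 passed as lower in treated NeuT only with total counts in place of scaling factors (edgeR adjusted p-values 0.0323 and 0.0465). The 4 fibroblast markers together summed to 7.96 to 9.24 CPM in the Empty libraries and to 67.5 to 82.4 CPM in the NeuT libraries, with DCN at up to 77.5 CPM. The collagen gene COL1A1 was at 4.70 to 5.83 CPM in all libraries, and COL1A2 and LUM were at or near 0, with at most 0.262 and 0.0557 CPM. The part of DCN-expressing cells in the line differences was not tested.

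SNHG6 shares 29.3% of its exonic bases with MCMDC2 and SNHG16 shares 30.6% with ENSG00000284526, both on the opposite strand, which averaged 21.9 and 12.6 counts. GAS5-AS1 shares 0.867% of the exonic bases of GAS5, and TRNAU1AP shares 0.188% of those of SNHG12. The snoRNAs themselves were hardly counted. Of 24 snoRNA rows inside the spans of 9 hosts, 20 overlap an exon of their host, and 19 of those were listed at 0 in every library. All 4 rows outside host exons had counts. The rows with a mean of at least 10 counts were SNORA73B within SNHG3 (15.9 counts) and SNORD99 within SNHG12 (17.2 counts). SNORD99 was lower in untreated NeuT by a log2 difference of -1.48 (SE 0.51, adjusted p = 0.0290 by edgeR), as was its host. With JG-98 the difference of SNORD99 was -1.21 (SE 0.51; 0.0669) and was not called. SNORA73B (-0.77, SE 0.56; 0.301) was not called between untreated lines. Libraries were made from poly(A)-selected RNA, which does not capture mature snoRNAs well, so these rows do not measure snoRNA output. Reads that overlap both a host exon and a snoRNA row may be counted differently from other reads. Their part in the rows at 0, and in the host counts, was not tested.

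The hosts were set beside other gene lists. Of 16 further noncoding snoRNA hosts tested, 2 were called higher with JG-98 on average, EPB41L4A-AS1 (0.34, SE 0.085, adjusted p = 0.0319 by edgeR) and SNHG29 (0.17, SE 0.046; 0.0449), and 0 lower. The shares over all genes were 2.39% and 1.58%. SNHG29 was named in this comparison after its value was seen. No host of this list was called lower by DESeq2 or limma-voom either, limma-voom called none higher, and 1 was lower at an unadjusted p-value under 0.05. Between untreated lines 11 of the 16 were called lower in NeuT and 1, SNHG29 (0.49), higher, with a median log2 difference of -0.89. Over all genes 20.8% were called lower and 21.2% higher in this comparison. The median of all genes tested was -0.02 and that of the 10 hosts was -0.11. SNHG10 had the lowest value of the list, -2.17, falling from 3.89 ± 0.37 to 0.866 ± 0.11 CPM (SD, n = 2 each).

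Of 144 protein-coding snoRNA hosts tested, 2 were called higher with JG-98 on average and 4 lower. Together that is 4.17% of the list, near the 3.97% of all genes, and DESeq2 called 3 higher and 9 lower. The higher ones were the translation factor gene EIF5 (0.21) and the isoleucyl-tRNA synthetase gene IARS1 (0.19), and the lower ones were MVB12B (-0.50), DEGS1 (-0.19), UBAP2L (-0.15) and UBAP2 (-0.15). All of these except MVB12B were named after their values were seen. Between untreated lines 32 of the 144 were called higher and 57 lower, 61.8% in all against 42.0% of all genes, with a median of -0.06. Of 10 abundant long noncoding RNAs without snoRNAs, edgeR and DESeq2 called 0 with JG-98 on average and limma-voom called 1, with 2 at an unadjusted p-value under 0.05 in edgeR. NEAT1, the scaffold of paraspeckles, had the highest value of that list, 0.33 (SE 0.088, adjusted p = 0.0916 by edgeR).

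**Figure D3:**
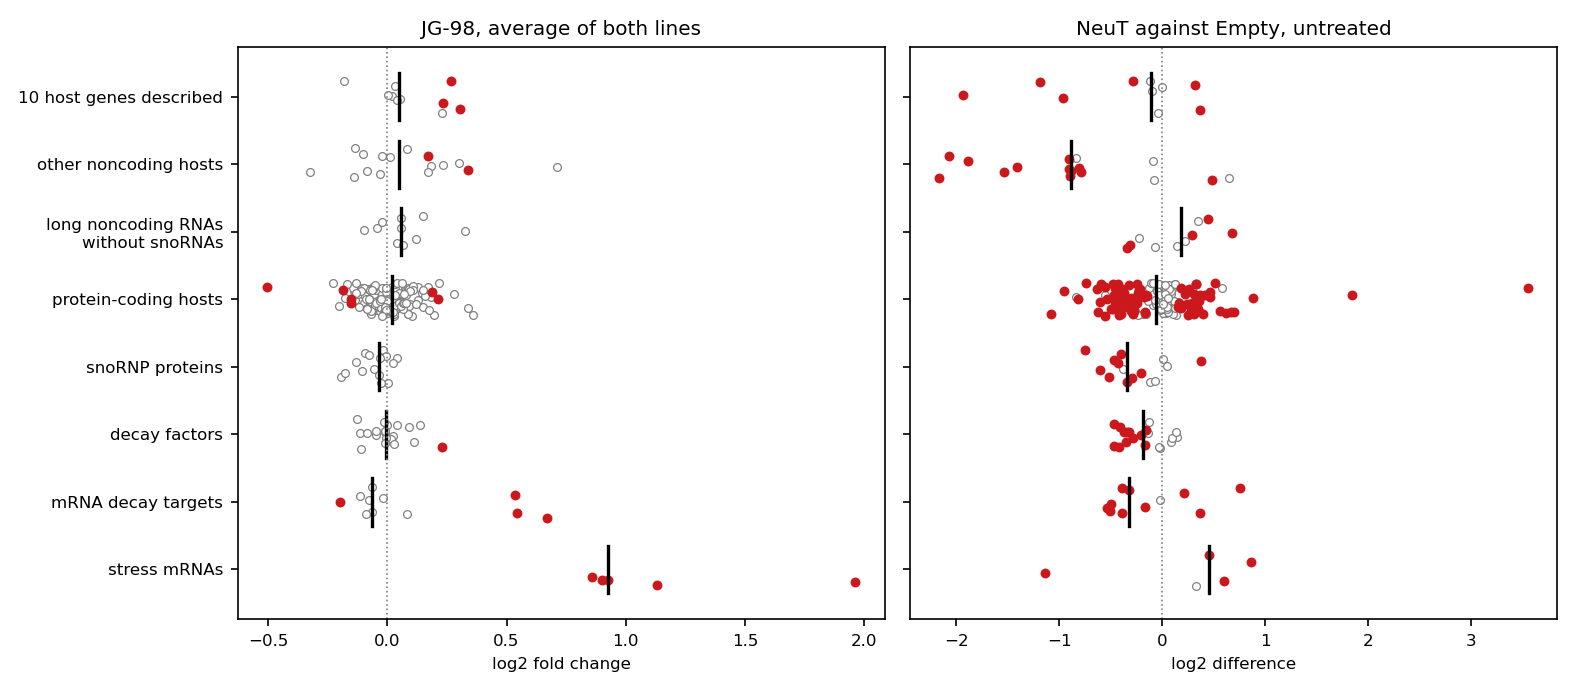
Log2 fold change with JG-98 averaged over both lines (left) and log2 difference of untreated NeuT from untreated Empty (right) for the tested genes of 8 lists. Each point is a gene, filled red where the edgeR adjusted p-value was under 0.05, vertical position within a list is only for display and the black bar is the list median. In the left panel the list medians lie near 0 except for the 5 stress mRNAs, and in the right panel the other noncoding hosts have a median of -0.89.

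Genes of the decay pathway were counted in the same way. Of 20 nonsense-mediated decay factors, 1 was called with JG-98 on average, SMG5 (0.23, SE 0.057, adjusted p = 0.0314 by edgeR), which acts on phosphorylated UPF1, and 0 were called lower, with 2 lower at an unadjusted p-value under 0.05 and 0 by DESeq2 or limma-voom. This is 5% of the list, near the 3.97% of all genes. UPF1, the central helicase of the pathway, had -0.11 (SE 0.043; 0.179). In untreated NeuT 12 of the 20 were called lower, against 20.8% of all genes, and 0 higher, with a median of -0.19. UPF3B (-0.47) and SMG5 (-0.47) had the lowest values. Of 11 mRNAs reported as decay targets, 3 rose with JG-98 on average, GADD45A (0.67), UPP1 (0.54) and GADD45B (0.53), and SRSF2 (-0.20, adjusted p = 0.0477 by edgeR), a splicing factor mRNA, was called lower. The shares over all genes were 2.39% higher and 1.58% lower. The call of SRSF2 was lost with limma-voom, which called 0 of the 11 lower. In untreated NeuT 7 of the 11 were called lower, against 20.8% of all genes, and 3 higher, against 21.2%, with a median of -0.32, and SRSF2 was lower by -0.54. GADD45B was named after its value was seen. GADD45A and GADD45B are also known as stress-induced genes.

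Of 15 snoRNP proteins and assembly factors, edgeR called 0 with JG-98 on average, with 5 lower at an unadjusted p-value under 0.05, DESeq2 called 2 lower and limma-voom called 0. SHQ1, which assembles H/ACA snoRNPs, had the lowest value, -0.19 (SE 0.053, adjusted p = 0.0520 by edgeR). Between untreated lines 9 of the 15 were called lower, against 20.8% of all genes, among them NAF1 (-0.75) and NOP56 (-0.61), and NOP10 (0.37) was called higher. The 5 stress mRNAs set beside the hosts for scale were all called higher with the drug on average, DDIT3 by 1.96 (SE 0.12) and TRIB3 by 1.13 (SE 0.093). The largest host change, that of GAS5, was 0.30 on the same scale.

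The genes whose pattern was most like the mean of the 10 hosts over the 8 libraries were RNASEH1-DT, CCT8P1, SPC25, SMIM20 and CTSD. Pearson's r of log2 CPM was 0.996, 0.994, 0.994, 0.992 and 0.990, the highest of the 13106 genes averaging 50 counts or more. The 8 libraries form 2 lines, and r chiefly reflects the difference between them. The hosts themselves did not all follow this mean. SNHG1, SNHG3 and SNHG12 had r of 0.95 to 0.995 with one another, while ZFAS1 and SNHG6 had r of -0.78 to -0.68 with these hosts. Promoter windows of 300 bases were matched in RefSeq (GRCh38.p14) for 8 of the 10 hosts. On either strand, TGATGNAAN, a composite motif known to bind ATF4, was found in 0 of the 8 and in 3.61% of 35116 promoters, and CACGTG, the E-box known to bind MYC, in 0 of the 8 and in 7.26% of promoters.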

How the data were processed

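Poly(A)-selected RNA of 8 MCF-10A libraries was analysed, 2 per group, with groups and columns matched by title. All columns of values found their sample, with 0 left over. The authors deposited raw counts per gene as featureCounts writes them, with gene lengths in bases, and 1 table per line of their own log2 fold changes, mean log2 expression, test scores and p-values, per the file headers. The submitters' processing notes name Trim Galore 0.5.0, FastQC 0.11.7, HISAT2 2.1.0, SAMtools 1.9, featureCounts 1.6.3, limma and GRCh38. The annotation release and the handling of multiply matching reads are not given in the sources used here. Gene coordinates are those of the count table.

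The deposited counts went into edgeR 4.0.16 (R 4.3.3): filterByExpr (minimum 10, total 15), TMM factors and 1 robust quasi-likelihood model of all 8 libraries, with Benjamini-Hochberg adjustment over 17693 genes and a threshold of 0.05. The averaged effect is the mean of the drug effects in both lines. Standard errors are the size of the log2 fold change over the square root of F. Nothing in the labels says that replicates came from separate cultures, so p-values measure the spread between these libraries, which may be technical. An exact permutation test of 2 against 2 cannot go below 0.333 and was not used. Replicates differed beyond sampling noise, with a chi-square per gene of 4.52 to 22.1. On simulated counts of 17693 genes with 200 changed, the averaged test recovered 73% at a fold of 1.25 with 4 false calls and 100% at a fold of 2 with 12 false calls. At a fold of 1.25 the tests within NeuT and Empty recovered 23% and 12.5%. The simulated counts had the same spread in every gene and group and no difference between lines. Their changed genes were drawn from well-counted ones. The real groups were uneven in spread, so these shares do not give the recovery or false calls in the real data.

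Alternatives were other size factors and filters, DESeq2 1.42.0, limma-voom (limma 3.58.1), no robust estimation, a replicate block, a fit of the 4 libraries compared, and each library left out. The hosts, gene lists and motifs were chosen with earlier results of these data known. All 10 hosts are named, along with up to 2 highest and 2 lowest genes of each list in the averaged drug effect and between untreated lines, genes whose exons overlap a host, snoRNA rows with a mean of 10 counts, and the 5 most similar genes. Transcript starts and reading frames come from GENCODE 29, taking non-retained-intron transcripts and, where present, one starting with CTTT. Some genes that overlap a host or belong to a list, and 1 reading frame, are not reported here.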

Additional observations from a re-analysis of the deposited data

How the results depend on the processing

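Over 60 results (10 hosts in 6 contrasts), 909 of 1000 alternative values kept direction and side of the threshold, 19 lost a call, 15 gained one and 57 changed sign. None of the sign changes involved a call, and their largest size was 0.15 on the log2 scale. Hosts called higher in Empty numbered 1 with no filter (0.507% of all genes) and 1 with only the 4 libraries compared (0.833%), against 0 (0.26%). In NeuT they numbered 3 with no filter (1.98%) and 1 with only the 4 libraries compared (0.917%), against 2 (2.01%). Without each library in turn, hosts called higher numbered 0 to 2 in Empty, 0 to 4 in NeuT, 1 to 4 averaged and 1 to 2 between untreated lines, and hosts called lower 0 to 1 averaged. Samples left alone in a group are assumed to vary like the other groups. The cause was not tested. All genes called in Empty were 282 with no filter, 151 with DESeq2 and 205 with 4 libraries, against 60. In NeuT they were 1000 with no filter and 185 with 4 libraries, against 533. The averaged effect gave 1142 with no filter, against 702, and the interaction gave 138 with no filter, 26 with DESeq2, 3 without robust estimation and 2 with total counts, against 1. Without each library in turn, all genes called ran from 9 (without Empty JG-98 replicate 1) to 417 in Empty, 132 (without NeuT untreated replicate 1) to 2133 in NeuT, 259 (without NeuT untreated replicate 2) to 1934 averaged and 1 to 777 for the interaction. The highest count of each came without NeuT JG-98 replicate 1, and 0 hosts were called for the interaction in any of these fits. Differences between replicates of one group correlated with those of another at r of -0.10 to 0.24, so same-numbered libraries were not treated as pairs. The highest r, 0.24, was between the 2 treated groups. In both of these, replicate 1 had the higher summed host CPM (403.0 against 370.7 in Empty, 341.4 against 308.8 in NeuT). With the replicate block the hosts called higher were 0 in Empty, 2 in NeuT, 3 averaged and 2 between untreated lines, as without it. The shares of all genes called higher with the block were 0.271% in Empty, 2.17% in NeuT and 2.59% averaged.

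Sign changes lay close to 0. With RLE size factors, SNHG16 averaged was -0.000487, the ZFAS1 interaction -0.00453 and SNHG5 between untreated lines 0.00407, and with DESeq2 these were -0.000471, -0.00425 and 0.00407. With no filter SNHG16 averaged was -0.00113 and the SNHG5 interaction 0.00207. With total counts the ZFAS1 interaction was -0.00341 and SNHG8 between treated lines -0.0720. With at least 10 counts in every library the ZFAS1 interaction was -0.00310 and SNHG5 between untreated lines 0.00598. With limma-voom the interactions were 0.00456 for SNHG5 and -0.00829 for ZFAS1. The ZFAS1 interaction was -0.00488 with the replicate block, and SNHG5 between untreated lines was 0.000489 with only those 4 libraries. Without each library in turn, interactions ran from -0.00380 to 0.177 (GAS5), -0.0358 to 0.111 (SNHG1), -0.278 to 0.115 (SNHG12), -0.00721 to 0.180 (SNHG3), -0.117 to 0.113 (SNHG5) and -0.145 to 0.116 (ZFAS1). Drug changes in Empty ran from -0.0479 to 0.0845 (SNHG1) and -0.00329 to 0.0907 (SNHG16). In NeuT they ran from -0.0128 to 0.125 (SNHG1), -0.0555 to 0.0821 (SNHG15), -0.100 to 0.00857 (SNHG16), -0.0335 to 0.153 (SNHG3) and -0.156 to 0.00485 (SNHG6). Averaged changes ran from -0.0256 to 0.0287 (SNHG16), -0.0299 to 0.0632 (SNHG3) and -0.0204 to 0.0837 (SNHG6). Differences between untreated lines ran from -0.0889 to 0.00595 (SNHG16) and -0.0287 to 0.0486 (SNHG5), and between treated lines from -0.122 to 0.108 (SNHG5) and -0.0588 to 0.0634 (SNHG8).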
